A study of Mus musculus with 17 samples.

Results

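The genes described here encode costimulatory and checkpoint ligands, the surface molecules with which an antigen-presenting cell strengthens or restrains a T cell that has recognized antigen. They were the rows of the count table with the symbols Cd80, Cd86, Cd40, Icosl, Cd83, Cd274, Pdcd1lg2, Havcr2 and Vsir, 9 of 22859 genes, and all 9 were present and passed the filter on low counts. Pdcd1lg2 passed it only through libraries of 1 subset, as shown by its values.

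RNA was sequenced from macrophages sorted out of collagenase-digested synovium, the membrane that lines joints. All mice were adult and labelled Fcgr2b-KO, controls included, so every group lacks by its label the inhibitory receptor for immunoglobulin G. Mice either received immune complexes (IC), antibody bound to its antigen, intravenously 8 h before tissue was taken, or were controls. The subsets were LYVE1+CX3CR1+ macrophages of the lining and, from the tissue beneath it, MHCII+CD11c- and MHCII+CD11c+ macrophages, here called LYVE1+, CD11c- and CD11c+ macrophages for short. Each of the 6 groups had 3 libraries, apart from CD11c+ after IC with 2. The labels do not say how many mice stand behind a library, and a legend of the study gives several mice per plotted point for wild-type samples, which are not analysed here, so p-values measure the spread between these libraries.

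In textbook terms, CD80 and CD86 bind CD28 on T cells and activate them, or bind CTLA-4 with the opposite effect. CD40 receives the signal of CD40 ligand on helper T cells and turns on NF-kappaB, and ICOS ligand sustains helper T cells through ICOS. PD-L1 (Cd274) and PD-L2 (Pdcd1lg2) bind PD-1 and restrain T cells, and TIM-3 (Havcr2) and VISTA (Vsir) are inhibitory molecules that macrophages also carry.

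Libraries held 2301913 to 7248939 counts, and 3 counts corresponded to 0.419 to 1.24 CPM (counts scaled to the TMM-adjusted size of the library). Fcgr2b itself had 167 to 1168 counts in every library, and counts per gene cannot show which exons were read. Itgax, which encodes CD11c, was at 275 to 442 CPM in CD11c+ libraries and at most at 16 CPM elsewhere. The summed MHC class II genes H2-Aa, H2-Ab1, H2-Eb1 and Cd74 were at 19.8 to 155 CPM in LYVE1+ libraries and at 11100 to 34100 CPM in the others. Summed immediate early genes, which digestion of tissue is known to induce, were at 7890 to 10600 CPM in CD11c+ libraries and at 11600 to 14900 CPM in all others. Summed macrophage markers (Adgre1, Cd68, Csf1r, Fcgr1 and Mertk) were at 1250 to 1570 CPM in CD11c+ controls, at 2060 to 2210 CPM in CD11c+ macrophages after IC and at 3240 to 5210 CPM in all others. These sums thus move with each difference of CD11c+ macrophages given below, and their part in it was not tested. LYVE1+ libraries after IC detected 11547 to 14068 genes and their controls 16974 to 19926, and with all libraries thinned to 2301913 counts 11547 to 13814 and 16349 to 17408. Libraries numbered 2 of both MHCII+ control groups stood apart from the other libraries of their groups in Havcr2, Cd40 and Cd83. They also did so over all genes. Chi-square per degree of freedom between replicates was 39.2 and 28.4 (CD11c-) and 36.6 and 27.7 (CD11c+) with library 2, and 11.8 and 12.1 without it. Comparisons of the 3 genes named are given with and without these libraries. The libraries were picked for this after the values had been seen. Calls gained without them, of these genes or of others, are thus partly set by that choice and lend no support.

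Per kilobase of exon, Cd83 was the most abundant of the 9 genes in every group and Pdcd1lg2 the least abundant. Cd83 encodes a surface protein of activated antigen-presenting cells that keeps MHC class II and CD86 on the membrane. Its group means were 199 to 362 CPM per kb, and it took 32.3% to 65.7% of the counts of the 9 genes in a library. Vsir came next in every group, with means of 44.98 to 87.6 CPM per kb. At the low end, the mean of Cd274 in control LYVE1+ macrophages was 0.739 ± 0.0446 CPM per kb (SD, n = 3). The 2 ligands of CD28 and CTLA-4 were unequal, with Cd86 above Cd80 per kilobase in each of the 17 libraries. The ratio of Cd86 to Cd80 ran from 2.57 to 6.11 in CD11c+ libraries and from 6.68 to 62.9 in the libraries of the other subsets. The value of 62.9 came from the third LYVE1+ library after IC, with 7 counts of Cd80, and the next highest was 17.1. The gap between the ranges was narrow, the ratio was not tested, and no other pair of genes was set beside it.

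**Figure D1:**
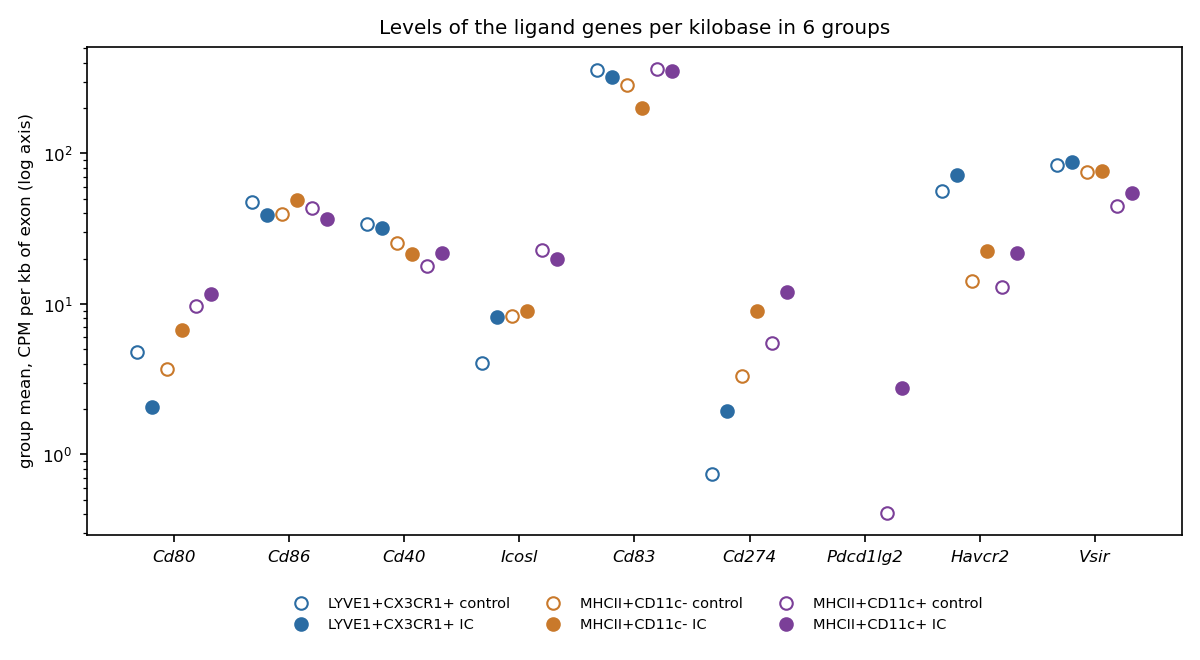
Group means of the 9 genes in CPM per kilobase of exon on a log axis, with open symbols for controls, filled symbols for IC and colours for the subsets; Pdcd1lg2 is drawn only where its mean exceeded 0.1. Cd83 lies between 199 and 362 CPM per kb in every group, and Cd274 starts at 0.739 in control LYVE1+ macrophages.

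Libraries of a group differed least in Cd86 and most in Pdcd1lg2. The biological coefficient of variation estimated by edgeR was 21.8% for Cd86, 23.6% for Vsir, 24.1% for Icosl, 26.2% for Cd40 and 26.8% for Cd83. It was 31.8% for Cd274, 34.2% for Cd80, 80.6% for Havcr2 and 121% for Pdcd1lg2, against a median of 43.9% over all genes tested. Havcr2 and Pdcd1lg2 were thus the members above that median.

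In Cd274, which encodes PD-L1, every IC library lay above every control library of its subset, and LYVE1+ macrophages were lowest under both conditions. The gene lies on mouse chromosome 19 of mm10 (chr19:29367455-29388095, plus strand). RefSeq sequence of GRCm38.p6 for the 250 bases before its start and before that of its neighbour Pdcd1lg2 is shown because the genes are 22823 bases apart and had different levels. Capitals mark the match to the NF-kappaB consensus, the one motif match in these 2 stretches.

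Cd274, chr19:29367188-29367437, plus strand: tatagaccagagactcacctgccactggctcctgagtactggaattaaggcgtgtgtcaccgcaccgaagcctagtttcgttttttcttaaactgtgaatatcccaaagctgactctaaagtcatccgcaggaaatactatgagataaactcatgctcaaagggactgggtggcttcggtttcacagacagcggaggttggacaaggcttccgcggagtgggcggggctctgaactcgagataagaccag

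Pdcd1lg2, chr19:29410669-29410918, plus strand: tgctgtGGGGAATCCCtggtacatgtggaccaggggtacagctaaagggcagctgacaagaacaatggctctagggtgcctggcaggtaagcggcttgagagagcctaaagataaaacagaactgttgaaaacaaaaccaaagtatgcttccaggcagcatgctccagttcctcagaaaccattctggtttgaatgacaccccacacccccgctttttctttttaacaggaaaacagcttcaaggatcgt

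Motifs were searched on both strands in the 6 members with a RefSeq promoter entry, which were Cd80, Cd274, Pdcd1lg2, Icosl, Havcr2 and Vsir. The NF-kappaB consensus matched GGGGAATCCC at 244 to 235 bases before the start of Pdcd1lg2, and 3.75% of 27025 promoters hold such a match in a window of this length. TTCNNNGAA, the STAT site named GAS, is held by 7.18% of promoters and the core of the interferon-stimulated response element (GAAA, 2 free bases, GAAA) by 3.04%. The glucocorticoid response element (GNACA, 3 free bases, TGTNC) is held by 0.381%. None of these 3 motifs was found in the windows of the 6 members, which says only that the letters are not there.

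In LYVE1+ macrophages, Cd274 was at 2.83, 2.70 and 2.51 CPM in controls and at 9.94, 8.17 and 2.90 CPM after IC. The third library after IC, with 7 counts, lay just above the controls, which had 10 to 18 counts. In CD11c- macrophages the values were 9.57, 13.9 and 12.7 CPM in controls and 34.3, 32.5 and 30.5 CPM after IC. In CD11c+ macrophages they were 15.7, 27.8 and 16.6 CPM in controls and 46.3 and 41.0 CPM after IC. Libraries of IC and control mice did not overlap in any subset, a pattern shown upward by 5%, 8.73% and 14.1% of all genes in LYVE1+, CD11c- and CD11c+ macrophages, respectively.

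The log2 fold changes of Cd274 after IC were 1.40 ± 0.44 (SE, adjusted p = 0.137) in LYVE1+, 1.43 ± 0.40 (adjusted p = 0.113) in CD11c- and 1.12 ± 0.43 (adjusted p = 0.737) in CD11c+ macrophages. None of the 3 passed the test within its subset with edgeR's quasi-likelihood test and Benjamini-Hochberg adjustment. DESeq2 called the first of these (adjusted p = 0.0307) and the second (adjusted p = 0.012), and so did the fit with surrogate variables (adjusted p = 0.0143 and 0.0227). Without the third LYVE1+ library after IC, which had the lowest value, edgeR called both as well (adjusted p = 0.046 and 0.0285). With a fit on only the groups compared the first had an adjusted p of 0.619. The mean of the 3 responses, a contrast added after these values had been seen, was 1.31 ± 0.24 on the log2 scale (adjusted p = 0.00267), and 3.35% of all genes passed this test. Over the 25 alternatives tried for this mean, its adjusted p lay between 3.71e-06 and 0.0187, and Cd274 was the 1 member of 9 that it called.

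**Figure D2:**
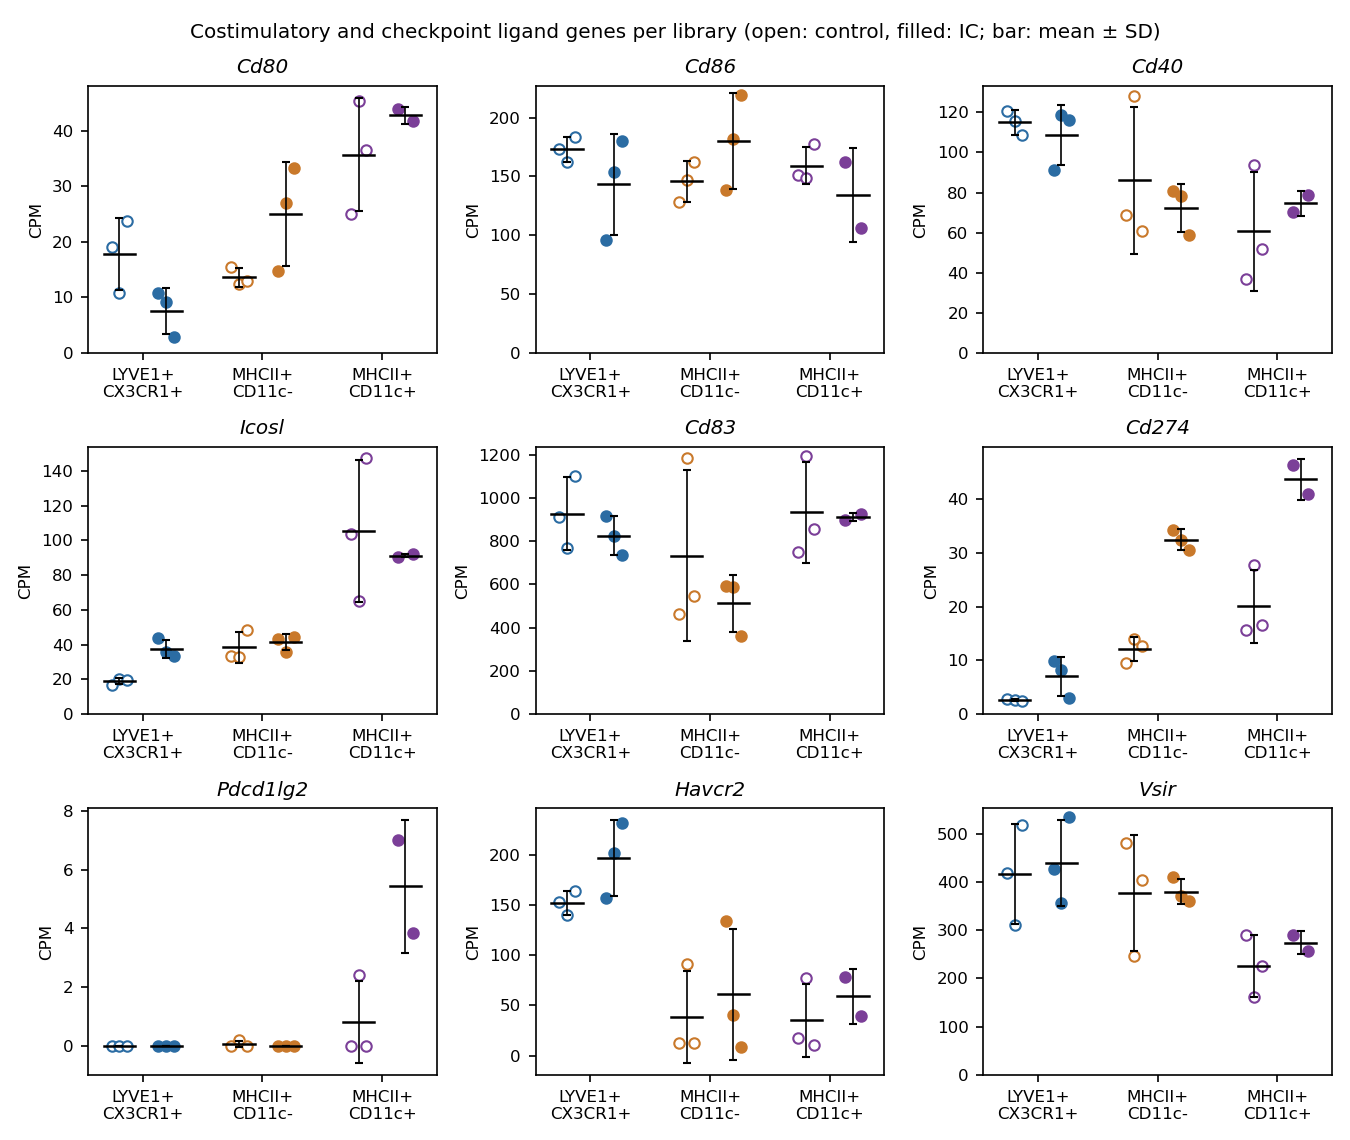
CPM of each gene in each library, with open circles for control and filled circles for IC libraries, colours for the subsets, and bars for the mean ± SD of a group (n = 3, or 2 for CD11c+ after IC). In the panel for Cd274 the filled circles of each subset lie above its open circles, the closest pair being 2.90 and 2.83 CPM in LYVE1+ macrophages.

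Between subsets, Cd274 was lower in LYVE1+ than in both MHCII+ subsets. In controls the log2 fold change was -2.16 ± 0.44 against CD11c- (adjusted p = 0.00952) and -2.90 ± 0.44 against CD11c+ macrophages (adjusted p = 4.24e-05). The first of these calls was lost without the third control LYVE1+ library (adjusted p = 0.0621). After IC the log2 fold changes were -2.19 ± 0.42 (adjusted p = 0.0026) and -2.61 ± 0.45 (adjusted p = 0.000309), and voom with sample weights lost the first of these calls (adjusted p = 0.0533). The difference between the 2 MHCII+ subsets did not pass the test in controls (log2 fold change 0.74 ± 0.40, adjusted p = 0.301) or after IC (0.43 ± 0.43, adjusted p = 0.8). The antisense gene AC119228.1 shares 511 exon bases with Cd274, and whether the authors counted by strand was not stated.

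Pdcd1lg2, which encodes PD-L2, was detected almost solely in CD11c+ libraries. Its 2 libraries after IC held 48 and 21 counts (7.04 and 3.84 CPM), and the 3 control libraries held 0, 13 (2.41 CPM) and 0 counts. All LYVE1+ libraries and all CD11c- libraries after IC had 0 counts, and 1 of the 3 CD11c- controls had 1 count. The counts thus came from both CD11c+ libraries after IC and 1 of 3 controls, and all libraries after IC lay above all controls of this subset.

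Against a floor of 3 counts per library, the mean of 5.44 CPM in CD11c+ macrophages after IC was at least 5.32-fold higher than in LYVE1+ and at least 7.74-fold higher than in CD11c- macrophages after IC. Because the gene passed the filter through CD11c+ libraries, no test is given for these differences. Within CD11c+ macrophages, 14.1% of all genes had no overlap upward after IC. Markers of mature dendritic cells, a cell type known for PD-L1 and PD-L2, were in sum also highest in CD11c+ macrophages after IC. The sum of all 5 (Ccr7, Fscn1, Ccl22, Ccl17 and Cacnb3) was 177, 215 and 235 CPM in CD11c+ controls, 310 and 788 CPM after IC, and 0.835 to 45.6 CPM in the other subsets. Library by library the sum did not follow Pdcd1lg2. The library with the higher sum after IC had the lower Pdcd1lg2. Among controls, the library with 13 counts of Pdcd1lg2 had a sum of 215 CPM, and a library with 0 counts had 235 CPM. The part of such cells in the Pdcd1lg2 result was not tested. In LYVE1+ libraries the sum was 4.4, 1.62 and 0.835 CPM in controls and 1.17, 3.14 and 21.5 CPM after IC, with Ccr7 at 0 in each. In bulk samples, fewer cells of a type and less RNA per cell cannot be told apart. The antisense gene A930007I19Rik overlaps Pdcd1lg2 in position but shares 0 exon bases with it.

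Among the activating ligands, Cd80 differed most between subsets after IC. It lies at chr16:38455561-38496335 on the plus strand, 1789479 bases from Cd86. Its RefSeq start lies inside this gene model, and the 250 bases before that start are shown because they hold 1 of the 2 AP-1 matches (capitals, TGANTCA, 42 to 36 bases before the start) among the 6 promoters. The other, in Havcr2, lies 200 to 194 bases before its start, and 6.87% of all promoters hold such a match.

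Cd80, chr16:38458683-38458932, plus strand: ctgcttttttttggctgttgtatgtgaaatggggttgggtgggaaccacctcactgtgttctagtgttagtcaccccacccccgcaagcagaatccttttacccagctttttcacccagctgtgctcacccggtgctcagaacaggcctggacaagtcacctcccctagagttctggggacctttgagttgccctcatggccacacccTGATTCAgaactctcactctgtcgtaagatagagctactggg

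Cd80 was at 19.01, 10.79 and 23.7 CPM in control LYVE1+ libraries and at 10.81, 9.11 and 2.90 CPM after IC. In CD11c- macrophages it was at 15.5, 12.3 and 13 CPM in controls and at 14.8, 26.9 and 33.2 CPM after IC. CD11c+ libraries had 25.0, 45.4 and 36.6 CPM in controls and 43.8 and 41.7 CPM after IC. IC and control libraries overlapped in each subset, barely so in LYVE1+ macrophages, and the values leaned downward in LYVE1+ and upward in CD11c- macrophages.

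The log2 fold changes of Cd80 after IC were -1.21 ± 0.44 (adjusted p = 0.195), 0.87 ± 0.42 (adjusted p = 0.493) and 0.26 ± 0.45 (adjusted p = 1), in the order LYVE1+, CD11c- and CD11c+. The difference between the first 2 responses was -2.08 ± 0.60 on the log2 scale (unadjusted p = 0.00214) and did not pass edgeR's test after adjustment over all genes (adjusted p = 0.356). After IC, Cd80 was lower in LYVE1+ than in CD11c+ (log2 fold change -2.46 ± 0.47, adjusted p = 0.00092) and CD11c- macrophages (-1.69 ± 0.44, adjusted p = 0.0223). The second of these was lost in 5 of 26 alternatives, among them without the third LYVE1+ library after IC (adjusted p = 0.0831), without the second CD11c- library after IC (adjusted p = 0.0742) and without the third (adjusted p = 0.115). In controls Cd80 was higher in CD11c+ than in CD11c- macrophages (1.39 ± 0.42, adjusted p = 0.0393). That call was lost in 12 of 26 alternatives, with an adjusted p of 0.212 without both MHCII+ control libraries numbered 2.

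Cd86 did not pass the test in any comparison. Its lowest and highest group means were 134 ± 40.1 CPM (SD, n = 2) in CD11c+ and 180 ± 40.7 CPM (n = 3) in CD11c- macrophages, both after IC. Controls had 173 ± 10.7, 146 ± 17.2 and 159 ± 15.9 CPM in LYVE1+, CD11c- and CD11c+ macrophages, all with n = 3. Every neighbouring pair in the order of the 6 groups overlapped. The 95% intervals of the IC responses were -0.76 to 0.21, -0.18 to 0.79 and -0.79 to 0.30 on the log2 scale.

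Icosl, the gene of ICOS ligand (chr10:78069302-78083913, plus strand), was highest in CD11c+ macrophages. Control LYVE1+ libraries had 16.8, 19.95 and 19.6 CPM and those after IC 43.5, 35.5 and 33.6 CPM. These groups did not overlap, a pattern shown upward by 5% of all genes in this subset. CD11c- libraries had 33.6, 32.8 and 48.7 CPM in controls and 43.2, 36.0 and 44.5 CPM after IC. CD11c+ libraries had 104, 65.2 and 147 CPM in controls and 90.5 and 92.0 CPM after IC, and in both MHCII+ subsets IC and control libraries overlapped.

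The log2 fold change of Icosl after IC was 0.999 ± 0.27 in LYVE1+ macrophages and missed the threshold in edgeR (adjusted p = 0.0757). It was called by DESeq2 (adjusted p = 0.024), with surrogate variables (adjusted p = 0.00886) and without the second control CD11c+ library (adjusted p = 0.0468). The responses in CD11c- (0.11 ± 0.27, adjusted p = 0.959) and CD11c+ macrophages (-0.20 ± 0.29, adjusted p = 1) did not pass. The difference of the LYVE1+ response from that of CD11c+ macrophages was 1.2 ± 0.40 (unadjusted p = 0.00644) and did not pass edgeR's test over all genes (adjusted p = 0.373).

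In controls Icosl was lower in LYVE1+ than in CD11c+ macrophages by a log2 fold change of -2.48 ± 0.28 (adjusted p = 8.02e-07). After IC this difference was -1.28 ± 0.29 (adjusted p = 0.00449), and it was lost without the second CD11c+ library after IC (adjusted p = 0.0544). CD11c+ exceeded CD11c- macrophages by 1.46 ± 0.27 in controls (adjusted p = 0.000852) and by 1.15 ± 0.29 after IC (adjusted p = 0.0211). The latter call was lost without either CD11c+ library after IC (adjusted p = 0.121 and 0.23) and without the second (0.101) or the third (0.0533) CD11c- library after IC.

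**Figure D3:**
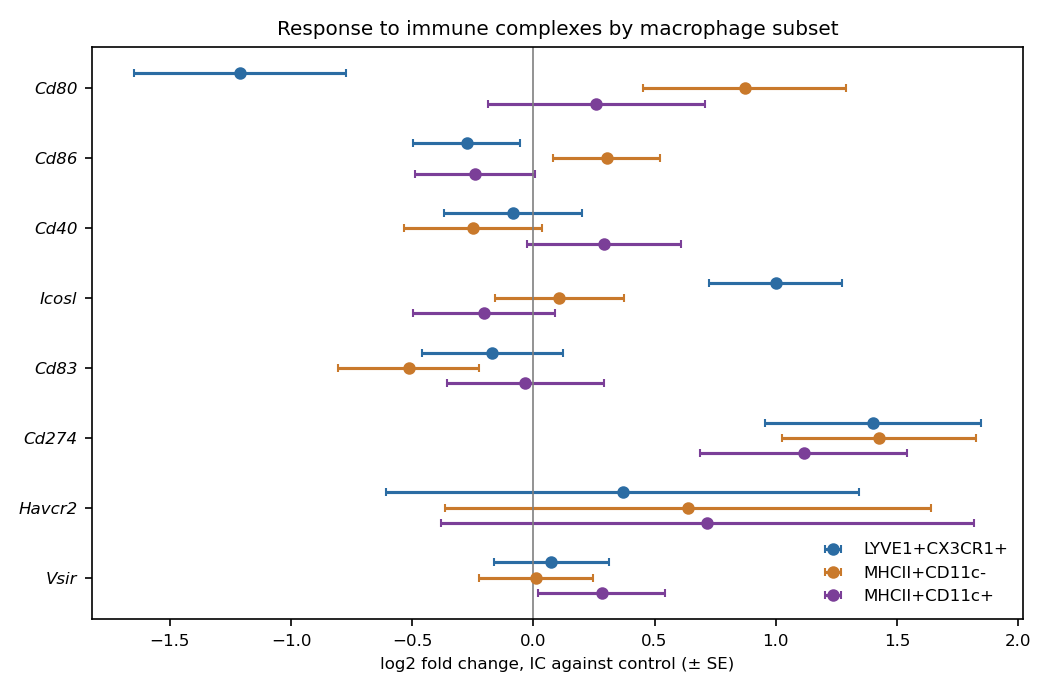
Log2 fold change of IC against control (horizontal axis, points, with bars for ± SE) for 8 genes in each subset; Pdcd1lg2 is left out because most of its libraries were at 0. Cd274 lies at 1.40, 1.43 and 1.12 in the 3 subsets, and Cd80 at -1.21, 0.87 and 0.26.

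Cd40 had its highest group means in LYVE1+ macrophages, with 121, 116 and 109 CPM in controls and 91.5, 119 and 116 CPM after IC. CD11c- libraries had 68.9, 128 and 61.0 CPM in controls and 80.6, 78.3 and 58.8 CPM after IC. CD11c+ libraries had 36.7, 93.8 and 51.7 CPM in controls and 70.2 and 79.0 CPM after IC. The second control library was the highest of its group in both MHCII+ subsets, and IC and control overlapped in every subset.

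Control LYVE1+ macrophages exceeded control CD11c+ macrophages in Cd40 by a log2 fold change of 0.92 ± 0.29 (adjusted p = 0.031). This call was lost in 6 alternatives, of which 5 left out any 1 control LYVE1+ library or the first or the third control CD11c+ library, and the adjusted p reached 0.171. Without both MHCII+ control libraries numbered 2 the difference was 1.34 ± 0.24 (adjusted p = 0.000241). Against control CD11c- macrophages it was 0.41 ± 0.28 (adjusted p = 0.77) over all libraries and 0.79 ± 0.23 (adjusted p = 0.0569) without them. IC responses of Cd40 were -0.09 ± 0.28 (adjusted p = 0.949), -0.25 ± 0.28 (adjusted p = 0.889) and 0.29 ± 0.32 (adjusted p = 1) in LYVE1+, CD11c- and CD11c+ macrophages. Without these libraries the last 2 were 0.15 ± 0.23 (adjusted p = 0.882) and 0.76 ± 0.26 (adjusted p = 0.249).

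Cd83, though abundant, did not pass the test in any comparison over all libraries. It was at 911, 767 and 1102 CPM in control LYVE1+ libraries and at 915, 823 and 735 CPM after IC. In CD11c- libraries it was at 463, 1185 and 547 CPM in controls and at 590, 588 and 360 CPM after IC, and in CD11c+ libraries at 749, 1192 and 855 CPM and at 898 and 926 CPM. The second control library was again the highest of both MHCII+ groups. The IC responses were -0.17 ± 0.29 (adjusted p = 0.871), -0.51 ± 0.29 (adjusted p = 0.619) and -0.03 ± 0.32 (adjusted p = 1), and the sign of the last 2 turned without these libraries, to 0.02 and 0.18. Without them, left out after these values had been seen, Cd83 was also called lower in CD11c- macrophages than in both other subsets. In controls LYVE1+ exceeded CD11c- macrophages by 0.84 ± 0.20 on the log2 scale (adjusted p = 0.0131, against 0.34 and 0.873 over all libraries), and CD11c+ did by 0.68 ± 0.21 (adjusted p = 0.0401, against 0.35 and 0.557). After IC these differences were 0.71 ± 0.17 (adjusted p = 0.0122, against 0.68 and 0.186) and 0.84 ± 0.19 (adjusted p = 0.00628, against 0.83 and 0.207). The libraries left out are not part of the comparisons after IC. There the fold changes hardly moved, and the SE, which draws on the spread in all groups, fell from 0.29 and 0.32.

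Havcr2, which encodes TIM-3, was highest in LYVE1+ macrophages, with 153, 139 and 164 CPM in controls and 157, 201 and 232 CPM after IC. CD11c- libraries scattered from 12.1, 91.7 and 12.3 CPM in controls to 134, 40.9 and 8.51 CPM after IC. CD11c+ libraries had 17.2, 77.3 and 10.9 CPM in controls and 78.1 and 39.7 CPM after IC. All LYVE1+ libraries lay above all libraries of the MHCII+ subsets, and the 3 MHCII+ groups with 3 libraries spread widely. A separation in this direction was shown by 11.3% of all genes against CD11c- and 20.8% against CD11c+ controls, and by 6.17% and 13.1% after IC. Havcr2 did not pass the test in any comparison over all libraries. In controls the log2 fold change of LYVE1+ was 1.95 ± 1.02 against CD11c- (adjusted p = 0.606) and 2.08 ± 1.03 against CD11c+ macrophages (adjusted p = 0.229). Without both MHCII+ control libraries numbered 2 these were 3.6 ± 0.93 (adjusted p = 0.0653) and 3.36 ± 0.91 (adjusted p = 0.0304), and the second was then called, by a choice made on these values. After IC they were 1.68 ± 1.01 (adjusted p = 0.374) and 1.73 ± 1.16 (adjusted p = 0.398), and a fit on only the groups compared called the second (1.79 ± 0.32, adjusted p = 0.0108). The IC responses were 0.37 ± 0.98 (adjusted p = 0.931), 0.64 ± 1.001 (adjusted p = 0.936) and 0.72 ± 1.10 (adjusted p = 1). Leaving out 1 library moved the last 2 to between -0.645 and 2.322 and to between 0.151 and 2.041, and without both libraries numbered 2 they were 2.32 ± 0.89 (adjusted p = 0.309) and 2.04 ± 0.92 (adjusted p = 0.572).

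The 5 LYVE1+ markers were set beside Havcr2 within the MHCII+ groups. The library with the most Havcr2 also had the most Vsig4 and the most Cx3cr1 in 4 of the 4 groups. It had the most Lyve1 in 3, the most Folr2 in 2 and the most Timd4 in 1. In both control groups this was library 2, and CD11c+ after IC has only 2 libraries. The share of all genes that peak in the same libraries was not computed, so these counts are not read as particular to the markers. Vsig4, a complement receptor of tissue macrophages, was at 28.9, 305 and 22.3 CPM in CD11c- controls and at 540, 144 and 28.3 CPM after IC. In CD11c+ libraries it was at 1.06, 81.0 and 0 CPM in controls and at 99.7 and 16.6 CPM after IC, against 1120 to 2010 CPM in LYVE1+ libraries. The group in which Lyve1 did not follow was CD11c- after IC, where the library with the least Havcr2 (8.51 CPM) had the most Lyve1 (2450 CPM). In the CD11c- control with the most Havcr2, Timd4 (46 CPM) and Folr2 (87.3 CPM) were the lowest of the group. The sum of the 5 markers Lyve1, Cx3cr1, Timd4, Folr2 and Vsig4 was 985 to 1720 CPM in CD11c- controls, 1810 to 3290 CPM after IC, 57.4 to 579 and 265 to 558 CPM in CD11c+ controls and after IC, and 3540 to 6510 CPM in LYVE1+ libraries. The part of LYVE1+ cells in these values was not tested.

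**Figure D4:**
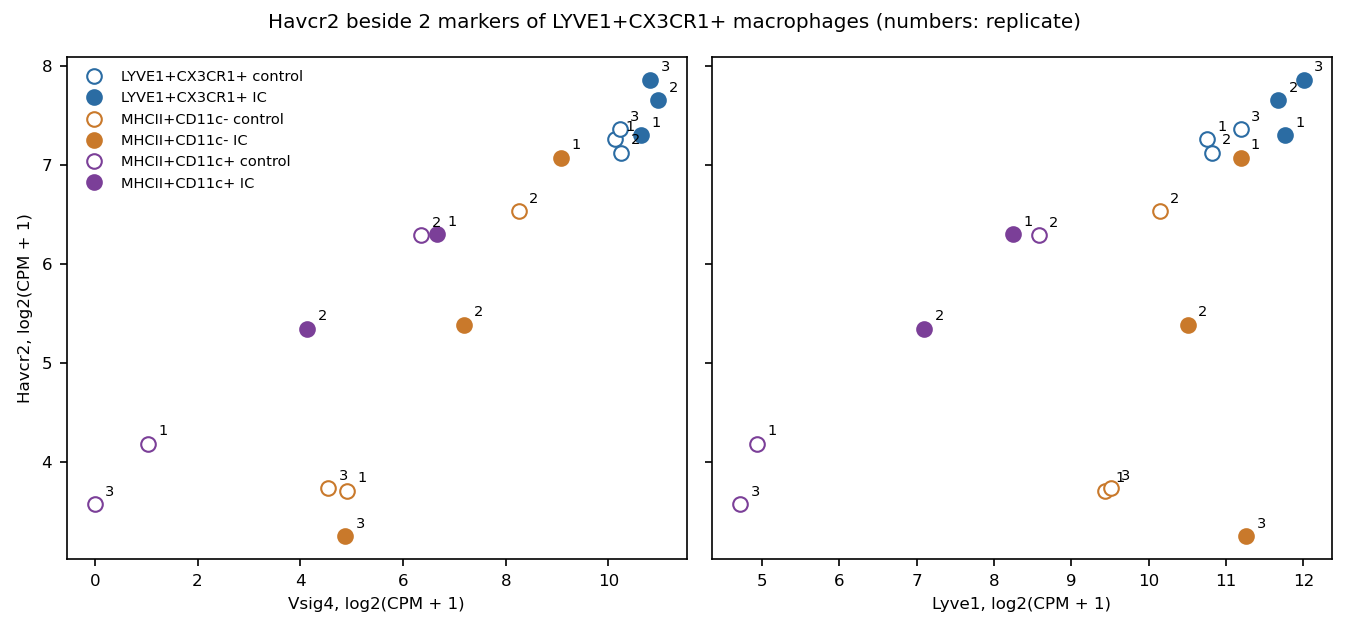
Havcr2 against Vsig4 (left) and Lyve1 (right), both axes in log2(CPM + 1), 1 point per library, numbered by replicate, with open symbols for controls and filled symbols for IC. In the left panel the MHCII+ libraries with 77.3 to 134 CPM of Havcr2 have 81.0 to 540 CPM of Vsig4, and in the right panel a CD11c- library with 2450 CPM of Lyve1 has 8.51 CPM of Havcr2.

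Vsir, the gene of VISTA, was at 419, 311 and 519 CPM in control LYVE1+ libraries and at 426, 357 and 534 CPM after IC. CD11c- libraries had 481, 246 and 405 CPM in controls and 411, 370 and 360 CPM after IC, and CD11c+ libraries 290, 162 and 225 CPM and then 291 and 257 CPM. CD11c+ macrophages had the lowest mean under both conditions, and the second control library was the lowest of its group in each of the 3 subsets. Control LYVE1+ exceeded control CD11c+ macrophages by a log2 fold change of 0.89 ± 0.24 (adjusted p = 0.0119). The call was lost without the first (adjusted p = 0.0541) or the third (0.114) control LYVE1+ library or the second control CD11c+ library (0.0581), and without both MHCII+ control libraries numbered 2 the difference was 0.65 ± 0.20 (adjusted p = 0.0297). CD11c+ against CD11c- macrophages did not pass in controls (-0.74 ± 0.24, adjusted p = 0.055) or after IC (-0.47 ± 0.27, adjusted p = 0.482). Nor did LYVE1+ against CD11c+ macrophages after IC (0.68 ± 0.27, adjusted p = 0.108). Without both libraries the first and the last of these were called (adjusted p = 0.0254 and 0.0247). Both calls follow a choice made after values had been seen and lend no support. The libraries left out are not part of the comparison after IC, where the fold change was then 0.69 ± 0.20 and only the SE fell. The IC responses were 0.07 ± 0.24 (adjusted p = 0.946), 0.01 ± 0.24 (adjusted p = 0.995) and 0.28 ± 0.26 (adjusted p = 1). Vsir lies within Cdh23 on the opposite strand, shares 0 exon bases with it, and Cdh23 had at most 77 counts in a library.

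Counted over the 9 genes, IC gave 0 calls of 9 in each subset, where 0.963% (LYVE1+), 0.701% (CD11c-) and 0.216% (CD11c+) of all genes were called. With no adjustment, 3, 2 and 1 members had a p under 0.05, beside 14.1%, 9.99% and 5.21% of all genes, and DESeq2 called 2, 1 and 0, beside 2.85%, 1.88% and 0.465%. In controls, LYVE1+ against CD11c+ macrophages gave 4 calls (Cd40 and Vsir higher, Cd274 and Icosl lower), with 15.2% of all genes called. CD11c+ against CD11c- macrophages gave 2, both higher (Cd80 and Icosl), with 8.66% of genes called, and LYVE1+ against CD11c- macrophages gave 1 (Cd274, lower) with 1.56%. After IC the same 3 comparisons gave 3 calls (Cd80, Cd274 and Icosl, all lower in LYVE1+; 11.9% of genes), 1 call (Icosl, higher; 4.03%) and 2 calls (Cd80 and Cd274, lower; 5.54%). These comparisons share libraries. No member passed in the tests of a difference between 2 IC responses, where 4, 5 and 0 of 15272 genes were called (0.0262%, 0.0327% and 0%), with 2, 2 and 0 members at an unadjusted p under 0.05, beside 7.54%, 8.02% and 3.25% of all genes. The median log2 fold change of the 9 after IC was 0, 0.11 and 0.28, beside -0.14, -0.03 and 0.01 over all genes. The LYVE1+ median is the value of Pdcd1lg2, which had 0 counts in all LYVE1+ libraries, so these medians are not read as a shift.

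In the other genes of the same signalling, calls are likewise set beside the share of all genes called. Of 17 further costimulatory and coinhibitory ligands 16 were in the table and 12 were tested. IC gave 1 call among them, a fall of Cd48, a ligand of the receptor CD244, in LYVE1+ macrophages (log2 fold change -1.07 ± 0.26, adjusted p = 0.048). Its level was 69.2 ± 15.3 CPM in controls and 32.8 ± 14.8 CPM after IC (SD, n = 3 each). Of the 147 genes called in this comparison 124 were lower, and the libraries after IC also detected fewer genes, as given above, which moves with this fall and with genes at 0 counts there. Its part was not tested. Against CD11c+ macrophages, LYVE1+ macrophages had 0 of the 12 higher and 3 lower in controls, and 0 higher and 5 lower after IC, where 15.2% and 11.9% of all genes were called. The counts of lower genes include Tnfsf14 in both comparisons and Nectin2 after IC. These genes passed the filter through MHCII+ libraries, so their calls are not read as results. With these genes included, the median log2 fold changes of the list were -0.6 and -1.13 there, beside 0.05 and -0.12 over all genes. The medians are thus not read as a shift in either comparison. Pvr, which encodes CD155, a ligand of the receptors TIGIT and CD226, was called in both (-1.27 ± 0.21, adjusted p = 0.000127, and -1.14 ± 0.23, adjusted p = 0.00166). It also exceeded CD11c- levels in CD11c+ macrophages under both conditions (1.02 ± 0.21, adjusted p = 0.00246, and 1.02 ± 0.23, adjusted p = 0.00921). Icam1, which encodes an adhesion ligand of T cells, was called in controls (-0.79 ± 0.17, adjusted p = 0.00189). Tnfsf14, which encodes the TNF family ligand LIGHT, was at 0.238 ± 0.287 CPM in control LYVE1+ and at 9.75 ± 8.71 CPM in control CD11c+ macrophages (SD, n = 3 each). Nectin2, Tnfsf14 and Tnfsf18 were at 0 counts in all LYVE1+ libraries after IC. Against the floor of 3 counts per library, Nectin2 was at least 12.6-fold and Tnfsf14 at least 6.56-fold higher in CD11c+ macrophages after IC, and Tnfsf18 at least 9.47-fold higher in CD11c- macrophages.

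Of 11 genes of CD40 signalling, all tested, 0 were higher and 6 lower in control LYVE1+ than in control CD11c+ macrophages, where 15.2% of all genes were called and Cd40 itself was higher. The list had a median log2 fold change of -0.72 beside 0.05 over all genes. Traf1, an adaptor of TNF receptors, was at 4.26 ± 1.03, 47.7 ± 11.2 and 240 ± 75.1 CPM in control LYVE1+, CD11c- and CD11c+ macrophages (SD, n = 3 each). The fold change between the first and last was -5.77 ± 0.59 on the log2 scale (adjusted p = 1.23e-05), and Traf1 was called in each of the 6 comparisons between subsets. Map3k14, the kinase of the noncanonical NF-kappaB pathway, differed by -0.96 ± 0.25 (adjusted p = 0.00796). Tnfaip3, which encodes A20, an inhibitor of NF-kappaB, differed by -1.42 ± 0.31 (adjusted p = 0.00484), and Birc3, a ubiquitin ligase that acts with TRAF proteins, by -0.82 ± 0.22 (adjusted p = 0.0108). After IC, 3 of the 11 were lower in LYVE1+ than in CD11c+ macrophages, where 11.9% of all genes were called. IC itself gave 0 calls in each subset, with 2, 1 and 0 genes at an unadjusted p under 0.05 by edgeR, beside 14.1%, 9.99% and 5.21% of all genes.

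Of 10 transcription factors known to act on ligand genes, all tested, 4 were lower in control LYVE1+ than in control CD11c+ macrophages and 0 were higher (15.2% of all genes called), with a median log2 fold change of the list of -0.56 beside 0.05 over all genes. Rel, an NF-kappaB subunit, was at 271 ± 23.8, 278 ± 72.0 and 582 ± 42.3 CPM in control LYVE1+, CD11c- and CD11c+ macrophages (-1.10 ± 0.19 between the first and last, adjusted p = 0.000164). Irf4 (-1.88 ± 0.23, adjusted p = 3.2e-06), Irf1 (-0.73 ± 0.22, adjusted p = 0.0236) and Batf3, a factor of conventional dendritic cells (-3.63 ± 0.81, adjusted p = 0.00441), were the others. IC gave 1 call in this list, a fall of Irf4 in CD11c- macrophages from 117 ± 18.9 to 54.1 ± 14.4 CPM (-1.12 ± 0.23, adjusted p = 0.0169). Irf4 was also called in the mean of the 3 IC responses (-0.77 ± 0.14, adjusted p = 0.00187), in the direction opposite to Cd274.

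Genes that act on the proteins of these ligands differed between subsets too. Of 4 regulators of the surface turnover of CD86 and PD-L1, Marchf8, a ubiquitin ligase that removes CD86 from the surface (1.40 ± 0.24, adjusted p = 0.000185), and Cmtm4, which keeps PD-L1 there (2.00 ± 0.45, adjusted p = 0.00253), were higher in control LYVE1+ than in control CD11c+ macrophages, and 0 were lower. Of 5 tested binding partners of TIM-3 and VISTA, 1 was higher and 1 lower in the same comparison, which called 15.2% of all genes. Lgals9, which encodes galectin-9, a ligand of TIM-3, was higher (1.40 ± 0.24, adjusted p = 0.000173), and Selplg, which encodes PSGL-1, a partner of VISTA, was lower (-1.14 ± 0.21, adjusted p = 0.000354). IC gave 0 calls in both lists in each subset, with 1, 0 and 0 regulators and 1, 3 and 1 partners at an unadjusted p under 0.05 by edgeR, beside the same shares of all genes as for CD40 signalling. Of 5 receptors on T cells that bind the ligands 2 were tested, and edgeR called 0 in each of the 3 IC comparisons, with 1, 0 and 0 at an unadjusted p under 0.05, and 0 in each comparison between subsets, with at most 1.

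Markers of other cells that could carry these ligands also differed between the groups, and their part in the results was not tested. Sums over all 5 markers of conventional dendritic cells were 191 to 553 CPM in CD11c+ controls and 167 to 248 CPM after IC, 64.3 to 208 CPM in CD11c- and 6.6 to 23.3 CPM in LYVE1+ libraries, where Clec9a was at 0 after IC. B cell markers, also 5, summed to 1.48 to 6.04, 0.443 to 42.1 and 0 to 1.67 CPM in the same order of subsets, with all 5 at 0 in LYVE1+ libraries after IC. Monocyte markers, all 4, summed to 559 to 1170, 220 to 513 and 8.7 to 38.8 CPM. Neutrophil markers, 5, summed to 63.6 to 247 CPM in CD11c+ controls and to 0.366 to 1.17 CPM after IC. In CD11c- macrophages they summed to 0.333 to 137 CPM in controls and to 1.11 to 15.4 CPM after IC. LYVE1+ libraries had at most 6.96 CPM. T cell markers (3 of 5 in the table) reached at most 13.4 CPM and stromal markers 171 CPM.

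The genes whose levels ran most like those of each called member over the 17 libraries were found by the root mean square difference of centred log2 CPM. They were Fgl2 (0.51) and Gm9844 (0.63) for Cd274, against a median over all genes of 1.505. For Icosl they were Nfkbie (0.31) and Coro1a (0.32), for Vsir Pltp (0.20) and Fkbp15 (0.20), for Cd40 Atp6v1a (0.24), and for Cd80 Gfpt1 (0.41) and Gm12411 (0.45). Havcr2 passed no test, and its nearest gene, 2510009E07Rik (0.36, with a median over all genes of 1.76), was looked up after its values had been seen.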

How the data were processed

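Each library started from 5 ng of RNA, and the kit keeps strand. According to the submitters' processing notes and the methods, the authors trimmed reads with Trim Galore, aligned them to mm10 with HISAT2 and assigned them to genes with featureCounts. Tool versions, annotation and use of strand are not given in the sources used here. The deposited values are raw counts per gene symbol. Both deposited forms were identical for 17 of 17 libraries, and 1 column matching no label summed to 0 and was not used.

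The analysis used edgeR 4.0.16 (R 4.3.3). The filter filterByExpr, at a minimum count of 10, left 15272 of 22859 genes, and TMM set the library sizes. A model of 6 group means was fitted to 17 libraries (robust glmQLFit, 11 residual degrees of freedom). Contrasts were tested two-sided by the quasi-likelihood F test with Benjamini-Hochberg adjustment over all genes tested, and a gene was called at an adjusted p under 0.05. Standard errors were derived from the fold change and the F statistic. CPM use the TMM-scaled library size, and lengths are the exon unions of GENCODE M21. The floor of 3 counts covers counting error only, as PCR copies are no separate molecules. Replicates differed by at least 6.77 chi-square per degree of freedom, so none was counted as a repeat. The script was tested on simulated data.

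Alternatives were DESeq2 1.42.0, RLE size factors, no filter, a fit on only the groups compared, limma 3.58.1 voom with sample weights, 5 surrogate variables (sva 3.50.0), thinning to 2301913 counts, a replicate block and leaving out each library. The mean IC contrast and the fit without both MHCII+ control libraries numbered 2 were added after values were seen. The members, lists and the rule for naming genes were chosen with earlier results of these data known. Named were all members, of each list at most 4 called genes per family of comparisons, and the 2 genes most like each called member, of which 1 is not reported here.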

Additional observations from a re-analysis of the deposited data

How the results depend on the processing

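Depth limits Pdcd1lg2 and LYVE1+ Cd274 most, with at most 48 and 34 counts in a library. For IC in LYVE1+ macrophages 0 members were called, against 2 with DESeq2, 2 with surrogate variables (Cd274 and Icosl) and 1 without both MHCII+ control libraries numbered 2 (Icosl). For IC in CD11c- macrophages it was 1 (Cd274) with DESeq2, voom or surrogate variables. For LYVE1+ against CD11c- controls it was 2 (Cd274 and Icosl) with DESeq2, RLE size factors, only the groups compared, voom or thinned counts, and 3 without both libraries numbered 2. Between the MHCII+ subsets it was 1 in controls with voom or surrogate variables, and after IC 3 with only the groups compared (Pdcd1lg2, Icosl and Cd83), 3 with voom (Cd80, Pdcd1lg2 and Icosl) and 2 without both libraries. Pdcd1lg2 passed the filter only through CD11c+ libraries, so its calls in these counts, or in any below, are not read as results. For LYVE1+ against CD11c- after IC it was 1 with only the groups compared (Cd274) and 0 with voom, where Cd274 had an adjusted p of 0.0533. The mean IC response had 2 with surrogate variables. Leaving out single libraries gave 0 to 1, 0 to 1 and 0 to 0 members for IC in LYVE1+, CD11c- and CD11c+ macrophages. It gave 0 to 3, 2 to 5 and 1 to 3 in controls, and 1 to 3, 2 to 4 and 0 to 2 after IC, for LYVE1+ against CD11c-, LYVE1+ against CD11c+ and CD11c+ against CD11c-. The mean IC response kept 1. Of these, Icosl was called for IC in LYVE1+ without CD11c+ control library 2 and Cd274 without LYVE1+ IC library 3. LYVE1+ against CD11c- controls had 0 without LYVE1+ control library 3, 3 without CD11c- control library 2, and 2 without CD11c+ control library 2 or 3 or LYVE1+ IC library 2 or 3. LYVE1+ against CD11c+ controls had 2 without LYVE1+ control library 1 or 3. CD11c+ against CD11c- controls had 1 without CD11c- control library 1 or 3, CD11c+ control library 3, either CD11c+ IC library or CD11c- IC library 2. After IC, LYVE1+ against CD11c- had 1 without CD11c- IC library 2 or 3 or LYVE1+ IC library 3, and CD11c+ against CD11c- had 0 without CD11c- IC library 2 or 3 or either CD11c+ IC library, and 2 without CD11c- control library 2. The labels do not say whether numbers mark the same mice across subsets. Because the labels give no pairing, the main fit used none. Deviations of same-numbered libraries correlated at 0.007 to 0.286 between control subsets (9 pairs, 2 over 0.1) and at 0.001 to 0.066 between subsets after IC (7 pairs, 0 over 0.1). Among 3 candidates, a library correlated best with its own number in 14 of 18 cases in controls and 5 of 6 after IC, a hint from the data and not from the design. The tests between subsets may thus ignore a real pairing. With the replicate block, LYVE1+ against CD11c- controls had 2 members, and Cd80 was lost between the MHCII+ subsets in controls (adjusted p = 0.0553). IC responses that changed sign all missed the test. In LYVE1+ macrophages Cd40 became 0.007 with DESeq2, RLE or thinned counts and ran from -0.1 to 0.062 without single libraries, Cd83 from -0.287 to 0.017 and Vsir from -0.094 to 0.308, with -0.064 under voom. In CD11c- macrophages the ranges were -0.442 to 0.158 for Cd40, -0.746 to 0.022 for Cd83, -0.645 to 2.322 for Havcr2 and -0.222 to 0.229 for Vsir. Without both libraries numbered 2 Cd40, Cd83 and Vsir there were 0.152, 0.018 and -0.228, Vsir was -0.038 with DESeq2, -0.039 with RLE and -0.043 with thinned counts, and Icosl -0.105 with thinned counts. In CD11c+ macrophages the ranges were -0.592 to 0.015 for Cd86, -0.457 to 0.113 for Icosl and -0.168 to 0.185 for Cd83, with 0.132 for Icosl under surrogate variables and 0.051 under voom and 0.179 without both libraries for Cd83. Of the other fits to single members 1021 kept direction and side of the threshold, 33 lost a call and 11 gained one. Over all genes, the calls for IC were 147, 107 and 33 and ran over the alternatives other than leaving out single libraries from 46 to 1558, 71 to 287 and 0 to 156, and for the mean from 458 to 1638 around 511. For LYVE1+ against CD11c-, LYVE1+ against CD11c+ and CD11c+ against CD11c- they were 238 (227 to 977), 2326 (2206 to 3810) and 1323 (888 to 1953) in controls, and 846 (270 to 2712), 1824 (1153 to 4045) and 616 (612 to 1783) after IC. For the differences between IC responses they were 4 (0 to 172), 5 (4 to 155) and 0 (0 to 25). Leaving out single libraries gave 43 (without LYVE1+ control library 3) to 195, 29 (without CD11c- IC library 3) to 173 and 0 (without CD11c+ IC library 1) to 104 for IC and 198 to 673 for the mean. In the order above it gave 96 (without LYVE1+ control library 3) to 411, 1591 to 2716 and 785 to 1671 in controls, 437 to 1118, 666 to 1965 and 145 (the last 2 lowest without CD11c+ IC library 2) to 787 after IC, and 1 to 7, 3 to 56 and 0 to 21 for the differences, so the shares of all genes called rest on single libraries too. RLE in place of TMM moved the median of all genes from -0.161 to -0.03 and from -0.205 to -0.039 in the first and second of these differences. The cause of these shifts was not tested.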
